A study of Mus musculus with 18 samples.

Results

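Serum response factor, encoded by Srf, and 9 genes that act with it or under it were followed in mouse small intestinal organoids treated with adrenergic agonists. The other 9 were the immediate early genes Egr1, Fos, Jun, Junb and Ier2 and the actin cytoskeleton genes Actb, Acta1, Cnn2 and Vcl. They were chosen as the rows of the deposited count table that carry these 10 symbols, out of 55487 genes. All 10 passed the filter on low counts, which kept 15247 genes. The choice was made with the agonist responses of these samples known, so that the members' values against vehicle are given below as a description and without p-values.

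The organoids, which are 3-dimensional epithelial cultures grown from crypts, came from female wild-type C57BL/6 mice. After 4 passages they were kept for 4 days with 1 μM norepinephrine (5 samples, mice 1 to 5) or its HCl vehicle (4 samples, mice 1 to 4), or with 1 μM UK14,304 (5 samples, mice 1 to 5) or its DMSO vehicle (4 samples, mice 1 to 4). Norepinephrine is the transmitter of sympathetic nerves and acts on α- and β-adrenergic receptors, whereas UK14,304 is a synthetic α2-adrenergic agonist. Such cultures are grown to hold epithelium without nerve, muscle or stroma. Each number marks 1 mouse, so that samples of different numbers are organoids of separate mice. In the main fit the mouse is a block. Its p-values are set against the spread between libraries that remains once group and mouse are taken out. RNA was measured as read counts per gene, and library totals ran from 21.87 to 27.85 M. Across libraries, levels are given as CPM, counts scaled to a common library total, after TMM normalization.

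SRF is a transcription factor that binds the CArG box, a short element made of a pair of C, a stretch of A and T and a pair of G. It works with partners of 2 families. The ternary complex factors (Elk1, Elk3, Elk4) are phosphorylated by ERK and serve immediate early genes, which are switched on within minutes of a growth signal without new protein synthesis. The myocardin-related factors (Mrtfa, Mrtfb) are held in the cytoplasm by monomeric actin and serve genes of the actin cytoskeleton, so that SRF activity follows the state of actin itself. Srf is among its own targets. In the gut epithelium, immediate early genes respond to growth factors, injury and the handling of the cells.

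The promoter windows are shown first because the CArG box is the element through which SRF is known to act. RefSeq promoter windows (GRCm38.p6, 250 bases before to 50 after the gene start) were at hand for 7 of the 10 members, namely Srf, Fos, Jun, Junb, Vcl, Acta1 and Cnn2. An exact CArG box on either strand was found in 4 of these 7, against 1.63% of all 32851 windows and 1.81% of the 27025 genes in the table. The members were listed as Srf and genes that act with it or under it. An excess of CArG boxes could follow from that choice, so that nothing is read from this count. The 90 bases around the boxes follow for these 4, 5′ to 3′ on the gene's strand, with each CArG box in capitals.
Srf: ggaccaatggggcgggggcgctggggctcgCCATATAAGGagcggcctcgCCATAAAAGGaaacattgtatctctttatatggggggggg
Vcl: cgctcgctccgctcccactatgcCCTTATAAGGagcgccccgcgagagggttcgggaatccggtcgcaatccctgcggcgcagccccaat
Acta1: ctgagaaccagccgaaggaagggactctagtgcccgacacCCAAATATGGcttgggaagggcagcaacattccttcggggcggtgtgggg
Cnn2: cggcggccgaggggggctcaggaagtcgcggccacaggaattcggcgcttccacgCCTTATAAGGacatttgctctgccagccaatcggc
The stretches lie at chr17:46556185-46556274 on the minus strand (Srf), chr14:20929148-20929237 on the plus strand (Vcl), chr8:123894799-123894888 on the minus strand (Acta1) and chr10:79988489-79988578 on the plus strand (Cnn2). Srf itself holds 2 boxes, which begin 82 and 62 bases before the start, and those of Acta1, Cnn2 and Vcl begin 73, 56 and 227 bases before it. The boxes of Vcl and Cnn2 have the same letters and read alike on both strands. No exact box was found in the windows of Fos, Jun and Junb, which says only that these letters are not within these 300 bases.

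In vehicle, the members spanned a wide range of levels per length of exon (CPM per kilobase, mean ± SD, n = 8 vehicle libraries). Actb, the cytoplasmic β-actin of all cells, stood at 823 ± 64.8 and was exceeded by few genes (percentile 99.8 of those tested). Ier2, an immediate early nuclear protein, followed at 44.2 ± 1.4 and Junb, an AP-1 subunit, at 35.5 ± 5.51. Then came Jun, the founding AP-1 subunit, at 17.7 ± 0.787, Acta1, the actin of skeletal muscle, at 17.4 ± 3.05, Vcl, the adhesion protein vinculin, at 16.8 ± 0.482, and Srf at 15 ± 0.549. The lowest were Cnn2, the actin-binding calponin 2, at 6.99 ± 0.593, Fos, the partner of Jun in AP-1, at 6.73 ± 1.17, and Egr1, a zinc finger factor of the ERK response, at 4.26 ± 0.59. The ranges over the vehicle libraries overlapped between Ier2 and Junb, and between Cnn2 and Fos. They also overlapped between Acta1 and each of Jun, Vcl and Srf, and between Jun and Vcl. Within libraries, Ier2 stood above Junb in every vehicle library. The other overlapping pairs changed order between libraries and cannot be ordered. Levels per kilobase use all exon bases, although 25.5% of those of Vcl overlap Ap3m1 and 7.28% of those of Jun overlap Junos. Reads that map to several genes were not counted, so that the levels and places of Vcl and Jun are uncertain. In counts, the members ran from 284 to 465 per library for Cnn2 up to 42617 to 60164 for Actb.

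Muscle genes were examined because Acta1 is known from skeletal muscle and because the wider actin list holds smooth muscle genes. The epithelial markers Epcam, Cdh1, Krt8 and Vil1 summed to 4948 to 5454 CPM in all libraries. The 10 smooth muscle and mesenchymal markers summed to 7.33 to 10.6 CPM, of which Vim made up 6.36 to 9.55, and 2 of the 10 were high enough to be tested. Acta2 had at most 5 counts in any library, Myh11 at most 6 and Des at most 2. Of the 5 skeletal muscle markers, Ckm, Myl1 and Tnnc2 had at most 1 count per library and Tnnt3 at most 2, while Mylpf had 145 to 221. Endothelial, immune and neural markers summed to 2.01 to 4.46 CPM. Acta1 itself had 344 to 774 counts, so that its signal stood beside muscle markers that, apart from Mylpf, were at or near 0.

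**Figure D1:**
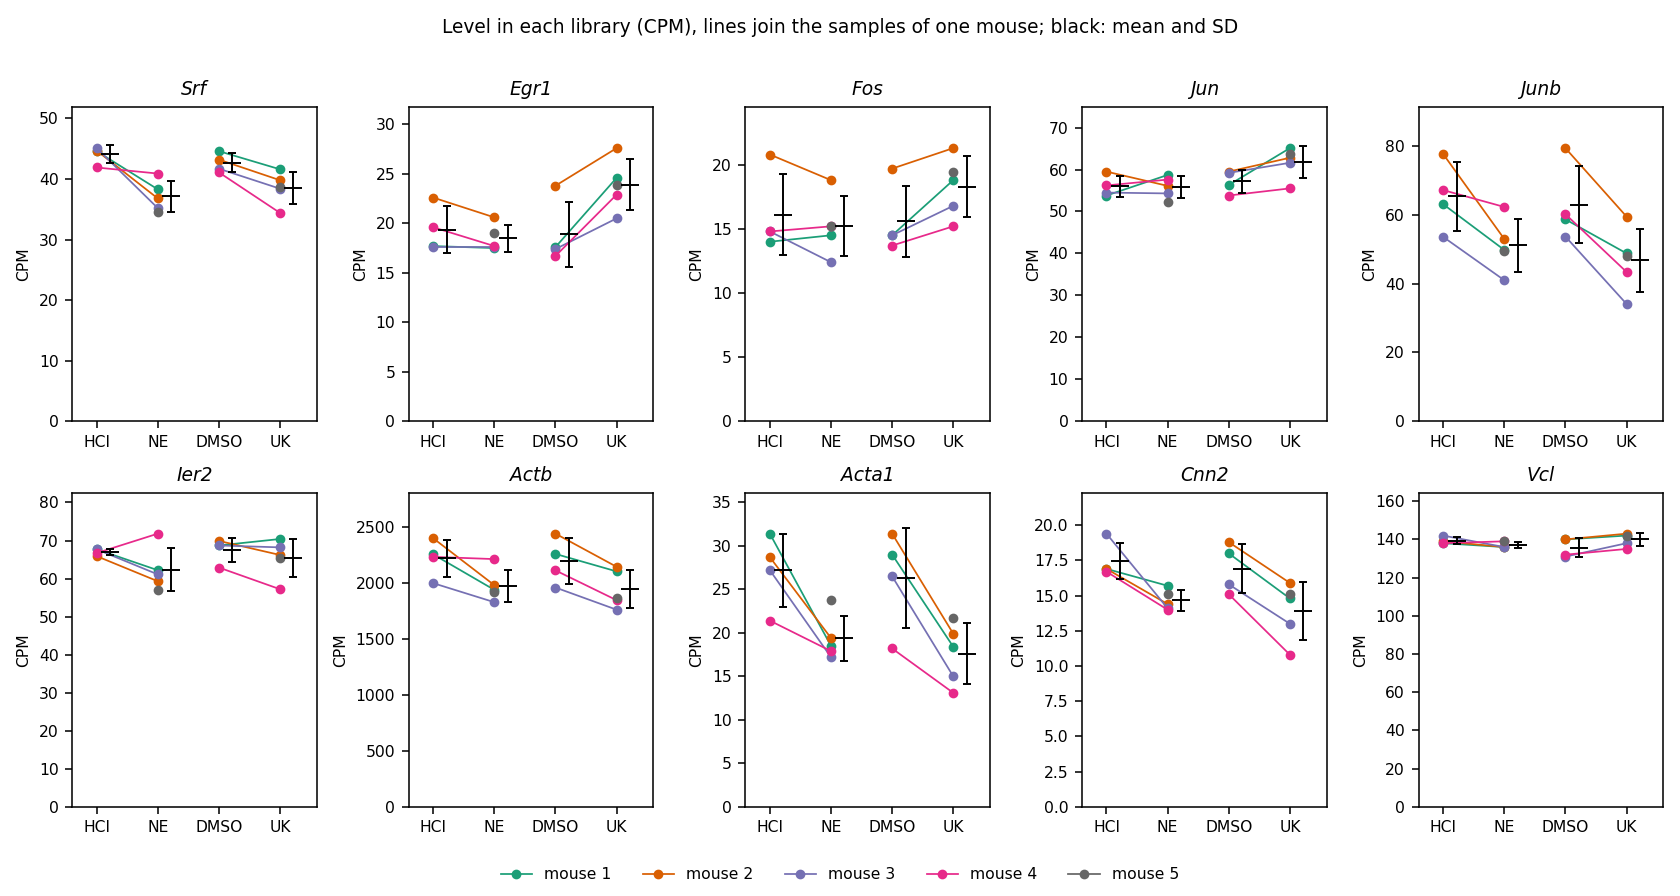
Level of each of the 10 genes (y axis, CPM from 0) in every library, with HCl vehicle, norepinephrine (NE), DMSO vehicle and UK14,304 (UK) along the x axis. Points are libraries coloured by mouse, lines join vehicle and agonist of one mouse, and black bars give the mean and SD (n = 4 for vehicles, 5 for agonists). Acta1, Junb, Srf, Actb and Cnn2 were lower with the agonist in all 4 mice for both agonists. Egr1, Fos, Jun and Vcl were higher in all 4 mice with UK14,304. Of all tested genes, 8.26% (norepinephrine) and 15.5% (UK14,304) were lower in all 4 mice, and 14% were higher with UK14,304.

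Srf stood lower with norepinephrine than with HCl vehicle. In HCl vehicle it was 44.6, 44.7, 45.1 and 41.9 CPM in mice 1 to 4, and with norepinephrine 38.3, 36.8, 35.2, 40.9 and 34.6 CPM in mice 1 to 5. Every norepinephrine library lay below every HCl library, with mouse 4 closest to the vehicle. The fitted log2 fold change with the mouse as a block was -0.23 ± 0.0567 (SE), a percent difference of -14.9. In DMSO vehicle Srf was 44.6, 43.2, 41.7 and 41.1 CPM, and with UK14,304 it was 41.6, 39.8, 38.4, 34.4 and 38.7 CPM. These groups overlapped in 1 library, that of UK14,304 mouse 1, and the log2 fold change was -0.13 ± 0.0564, lower in 4 of 4 mice. Lower values in all 4 mice were found for 8.26% of tested genes with norepinephrine and 15.5% with UK14,304. Groups without overlap, lower with the agonist, were found for 0.78% of all tested genes with norepinephrine, among them Srf and Cnn2.

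Among the partners of SRF, 0 genes passed the test with either agonist in the fit of all libraries with the mouse as a block, and 2, Mrtfb and Scai, passed under some other settings. Of the 9 genes in the list of cofactors and regulators, 7 were high enough to be tested. Myocd and Abra, both known from muscle, had at most 1 and 3 counts per library. Mrtfa was at 33.8 ± 1.97 CPM in HCl vehicle and 32.8 ± 2.09 with norepinephrine, and at 35.7 ± 0.607 in DMSO vehicle and 33.6 ± 1.52 with UK14,304 (log2 fold change -0.09 ± 0.0559, edgeR adjusted p = 0.472). Mrtfb had 123 ± 7.77 CPM in DMSO vehicle and 133 ± 4.46 with UK14,304, a log2 fold change of 0.11 ± 0.034 that was positive in 4 of 4 mice (edgeR adjusted p = 0.131). It passed with the GC trend removed (0.12, edgeR adjusted p = 0.0129) and without the norepinephrine library of mouse 4 (0.12, edgeR adjusted p = 0.0231), and its adjusted p ran from 0.0129 to 0.408 over all alternatives. For the ternary complex factors, the log2 fold changes with UK14,304 were -0.05 ± 0.0796 for Elk1, 0.18 ± 0.189 for Elk3 and 0.06 ± 0.0452 for Elk4 (edgeR adjusted p of 0.77, 0.665 and 0.56). Fhl2, a LIM protein that binds SRF, had 0.05 ± 0.049 (edgeR adjusted p = 0.653). Scai, which restrains the myocardin-related factors, had the largest values of the list, 0.42 ± 0.15 with norepinephrine and 0.29 ± 0.144 with UK14,304 (edgeR adjusted p = 0.556 and 0.365). With norepinephrine Scai passed with no filter on low counts (0.43, edgeR adjusted p = 0.00354), without the norepinephrine library of mouse 4 (0.59, edgeR adjusted p = 0.00342) and without mouse 4 (0.54, edgeR adjusted p = 0.000793), and its adjusted p reached 0.917 under other alternatives. The median of the list was 0.05 with norepinephrine and 0.06 with UK14,304, beside -0.008 and -0.004 over all tested genes.

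Among the immediate early genes, Egr1, Fos and Jun were higher with UK14,304 in all 4 mice, as were 14% of tested genes, and Junb was lower with both agonists. Egr1 was 17.6, 23.8, 17.4 and 16.7 CPM in DMSO vehicle and 24.6, 27.6, 20.5, 22.9 and 23.9 CPM with UK14,304. Each mouse had more Egr1 with the agonist (log2 ratios of 0.22 to 0.49), although the DMSO library of mouse 2 exceeded 2 of the UK14,304 libraries, and the fitted log2 fold change was 0.34 ± 0.0621. In HCl vehicle Egr1 was 17.7, 22.6, 17.6 and 19.6 CPM, and with norepinephrine 17.5, 20.6, 17.6, 17.7 and 19 CPM. That difference was small and below 0 in 4 of 4 mice, with log2 ratios from -0.14 to -0.01 and a fitted value of -0.07 ± 0.0636. With the GC trend of each library removed the norepinephrine value became 0.01, so that its sign depends on the processing.

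Fos followed the same direction as Egr1 with UK14,304, at a smaller size. In DMSO vehicle it was 14.5, 19.7, 14.5 and 13.7 CPM, and with UK14,304 it was 18.8, 21.3, 16.8, 15.2 and 19.4 CPM. The groups overlapped through the DMSO library of mouse 2, and within mice Fos was higher in 4 of 4 (log2 fold change 0.23 ± 0.0721). HCl vehicle gave 14, 20.8, 14.8 and 14.8 CPM and norepinephrine 14.5, 18.8, 12.4, 15.2 and 15.2 CPM, higher in 2 and lower in 2 of 4 mice (-0.09 ± 0.0736). Jun was higher with UK14,304 in 4 of 4 mice by a log2 fold change of 0.12 ± 0.0519, from 53.8 to 59.5 CPM in DMSO vehicle to 55.5 to 65.1 CPM with the agonist. With norepinephrine the Jun levels of 52.2 to 58.7 CPM lay about those of HCl vehicle, 53.8 to 59.5 CPM, and the log2 fold change was 0 ± 0.0522.

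Junb was lower with each agonist in 4 of 4 mice. It was 63.1, 77.7, 53.6 and 67.2 CPM in HCl vehicle and 49.8, 53, 41, 62.3 and 49.6 CPM with norepinephrine (log2 fold change -0.35 ± 0.0801). In DMSO vehicle it was 58.7, 79.4, 53.7 and 60.2 CPM and with UK14,304 48.8, 59.5, 34.1, 43.4 and 48 CPM (-0.44 ± 0.0802). The groups overlapped in both comparisons, and the within-mouse log2 ratios were -0.55 to -0.11 and -0.65 to -0.27. Ier2 differed little. Its log2 fold changes were -0.09 ± 0.0645 with norepinephrine, where mouse 4 went up (71.8 CPM against 66.7 in its vehicle) and the other 3 mice down, and -0.03 ± 0.0642 with UK14,304.

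The actin genes split into Acta1, Cnn2 and Actb, which were lower with both agonists, and Vcl, which hardly differed. Acta1 had the largest differences of the 10. It was 31.4, 28.7, 27.2 and 21.4 CPM in HCl vehicle and 18.5, 19.4, 17.2, 17.9 and 23.8 CPM with norepinephrine, a log2 fold change of -0.56 ± 0.0839. With DMSO vehicle it was 29, 31.4, 26.5 and 18.2 CPM and with UK14,304 18.4, 19.9, 15, 13.1 and 21.7 CPM, a log2 fold change of -0.66 ± 0.0836. All 4 mice were lower with each agonist, and the groups overlapped through the vehicle libraries of mouse 4, the lowest of their groups. Mouse 5, which has no vehicle library, had the highest value of each agonist group. As percent differences these fits were -32.4 and -36.6.

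Cnn2 was 16.9, 16.9, 19.4 and 16.7 CPM in HCl vehicle and 15.7, 14.4, 14.1, 14 and 15.1 CPM with norepinephrine, with no overlap (log2 fold change -0.28 ± 0.0833). In DMSO vehicle it was 18, 18.8, 15.8 and 15.1 CPM and with UK14,304 14.8, 15.9, 13, 10.8 and 15.1 CPM, lower in 4 of 4 mice (-0.30 ± 0.0828). Actb differed less. It ranged from 1997 to 2398 CPM in HCl vehicle and 1827 to 2212 with norepinephrine, and from 1958 to 2439 in DMSO vehicle and 1760 to 2143 with UK14,304 (log2 fold changes of -0.15 ± 0.0487 and -0.16 ± 0.0487, each lower in 4 of 4 mice). Vcl ranged from 131 to 143 CPM over all libraries, with log2 fold changes of -0.03 ± 0.0343 and 0.04 ± 0.0342. In a bulk sample of this kind, fewer cells of a type and less RNA per cell cannot be told apart.

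**Figure D2:**
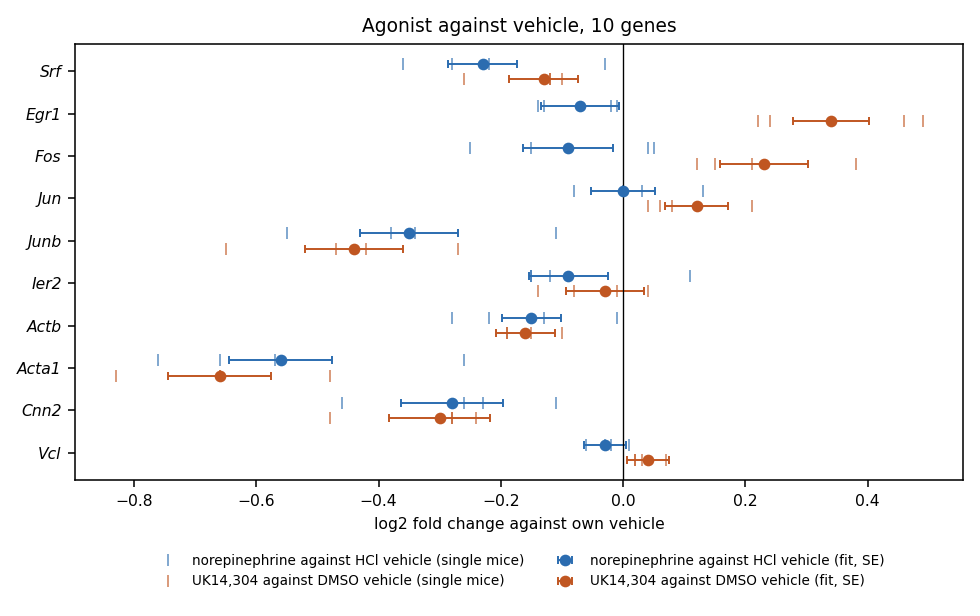
Log2 fold change of each gene against its own vehicle (x axis) for norepinephrine (blue) and UK14,304 (orange). Circles with bars are the fit with the mouse as a block and its SE, and ticks are the ratios within mice 1 to 4. Acta1 lies farthest below 0 for both agonists (-0.56 and -0.66), and Egr1 lies above 0 for UK14,304 (0.34) and near 0 for norepinephrine (-0.07).

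Across all 15247 tested genes, 16 had an adjusted p under 0.05 with norepinephrine (edgeR's quasi-likelihood test with Benjamini-Hochberg adjustment and the mouse as a block), which is 0.105% (0.0131% higher and 0.0918% lower), and 186 with UK14,304, which is 1.22% (0.177% higher and 1.04% lower). Among the 10 members, 1 was called with norepinephrine (Acta1) and 3 with UK14,304 (Acta1 and Junb lower, Egr1 higher). Of the 10, 6 were lower in all 4 mice with norepinephrine (Egr1 in mouse 3 by a log2 ratio that rounds to -0.01), and 5 were lower and 4 higher in all 4 mice with UK14,304. Since the members were chosen from these same contrasts, nothing is read from these counts. The median log2 fold change of the members was -0.12 with norepinephrine and -0.08 with UK14,304, beside -0.008 and -0.004 over all tested genes. Without the block, 0 of the 10 members were called with either agonist, and 0 genes in all with norepinephrine (943 at an unadjusted p under 0.05, and 34 called by DESeq2 with the block) and 6 with UK14,304 (0.0394%).

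The call of Junb rested on single vehicle libraries. With the DMSO library of mouse 2 or that of mouse 3 left out, 2 members were called with UK14,304, Acta1 and Egr1, and Junb was not. The same 2 were called, and Junb was not, once a term for the ribosomal RNA content of the libraries was added to the model (0.512% of all tested genes were then called with UK14,304, and 0.105% with norepinephrine). CT010467.1, a ribosomal RNA gene, took 1.83% to 3.06% of the counts of 7 libraries and 0.313% to 0.619% of those of 11. The 7 were 3 of 4 DMSO, 1 of 5 UK14,304, 1 of 4 HCl and 2 of 5 norepinephrine libraries. With this term the log2 fold changes with UK14,304 were -0.57 for Acta1, -0.36 for Junb and 0.41 for Egr1.

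Several members moved with the base composition of the libraries. The slope of log2 expression on the GC content of genes, in log2 units per 10 percentage points, ran from 0.0435 to 0.0732 in HCl vehicle, -0.146 to 0.195 with norepinephrine, -0.0384 to 0.121 in DMSO vehicle and -0.222 to 0.0605 with UK14,304. The extremes were both of mouse 4, 0.195 in its norepinephrine library and -0.222 in its UK14,304 library. Over the 18 libraries, which share mice and groups, Pearson's r with this slope was 0.84 for Srf, 0.82 for Ier2, 0.78 for Actb, 0.70 for Junb, 0.64 for Cnn2 and 0.52 for Acta1. It was 0.39 for Vcl, 0.18 for Jun, 0.15 for Fos and -0.08 for Egr1. Exon sequence of Srf, Junb and Ier2 is 64.4%, 62.6% and 60.9% G and C. That of Actb, Cnn2 and Acta1 is 51.1%, 53.6% and 57%. For the members of lower r it is 48.6% (Vcl), 55.5% (Jun), 51.9% (Fos) and 57.3% (Egr1). The order of r among the members thus did not follow their GC content throughout. With the trend removed, the log2 fold change of Srf was -0.12 with norepinephrine and -0.04 with UK14,304, that of Junb -0.25 and -0.34, and that of Acta1 -0.49 and -0.60. Ier2 had 0.01 and 0.05 and thus turned in sign. The part of the GC slope in these differences was not tested.

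**Figure D3:**
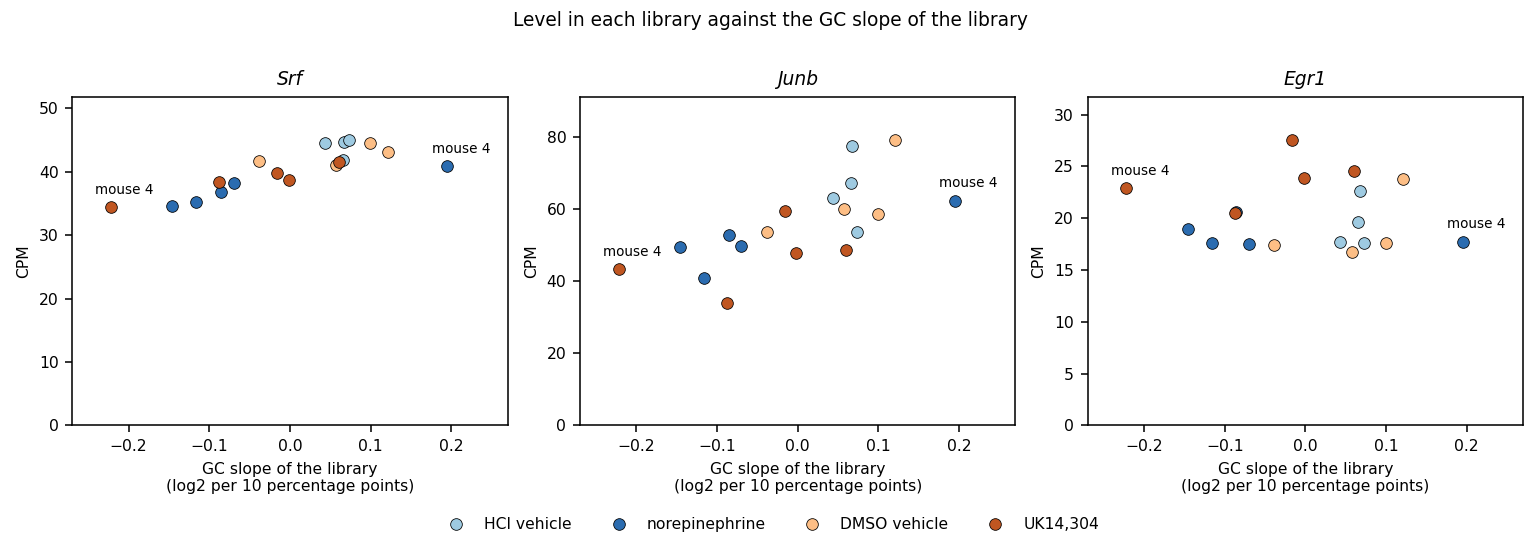
Level of Srf, Junb and Egr1 (y axis, CPM from 0) against the GC slope of the library (x axis, log2 units per 10 percentage points of GC content), 1 point per library, coloured by group. Srf is higher in libraries of higher slope (r = 0.84) and Egr1 is not (r = -0.08), and the agonist libraries of mouse 4 lie at both ends.

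The norepinephrine library of mouse 4, at the upper end of that slope, decided how many genes were called. Without it the calls rose to 2529 with norepinephrine (16.7% of 15161 tested genes) and 1225 with UK14,304 (8.08%). The members called were then 6 with norepinephrine (Acta1, Actb, Cnn2, Ier2, Junb and Srf, all lower) and 7 with UK14,304 (Acta1, Actb, Cnn2, Junb and Srf lower, Egr1 and Fos higher). The fold changes moved less than the counts. For norepinephrine, Srf went from -0.23 to -0.29, Junb from -0.35 to -0.44, Ier2 from -0.09 to -0.17 and Acta1 from -0.56 to -0.66.

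The agonists were also compared with each other through the difference of their effects. For Egr1 the UK14,304 effect exceeded that of norepinephrine by 0.42 ± 0.0865 on the log2 scale, and for Fos by 0.31 ± 0.1. Egr1 was also higher with UK14,304 than with norepinephrine in 5 of 5 mice, by 0.22 to 0.50. No share over all tested genes is given beside this count, so that nothing is read from it. The remaining differences were 0.12 ± 0.0716 for Jun, 0.10 ± 0.0779 for Srf, 0.06 ± 0.0886 for Ier2, 0.06 ± 0.0471 for Vcl, -0.01 ± 0.0671 for Actb, -0.03 ± 0.114 for Cnn2, and -0.09 for both Junb and Acta1 (SE 0.11 and 0.115). Across all tested genes, 0 passed edgeR's test of this difference, while 405 had an unadjusted p under 0.05 and DESeq2 called 1. An opposite sign in all 4 mice, lower with norepinephrine and higher with UK14,304, was found for 0.223% of tested genes, Egr1 among them. The norepinephrine difference of Egr1 was small and ran from -0.09 to 0.01 over the alternatives. Since Egr1 was chosen from these contrasts, nothing is read from this share.

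The vehicles themselves were compared as well, a contrast that the choice of genes did not rest on. For the 10 members the log2 difference of HCl from DMSO vehicle lay between -0.03 and 0.06, with unadjusted p from 0.332 to 0.872 in edgeR's test. Of all tested genes, 0 differed between the vehicles (277 at an unadjusted p under 0.05, and 0 with DESeq2). The largest standard error of these differences was 0.0842, for Cnn2.

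The mice differed from each other in 5 of the 10 members, a test that the choice of genes did not use either. Of all tested genes, 13.8% passed the F test on the mouse terms. The members that passed were Fos (adjusted p = 0.000566), Acta1 (0.00061), Junb (0.00125), Egr1 (0.00275) and Actb (0.0167), all by edgeR. For Srf, Jun, Ier2, Vcl and Cnn2 the adjusted p lay between 0.272 and 0.896.

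Mouse 2 had the most Fos and the most Egr1 of mice 1 to 4 in all 4 groups, a pattern that 4.89% of tested genes had. Its mean lay above that of the 4 mice by 0.33 for Fos, 0.24 for Egr1 and 0.26 for Junb on the log2 scale. Mouse 3 had the least Junb and the least Actb in all 4 groups (-0.30 and -0.14), and mouse 4 had the least Cnn2 in all 4 groups and the least Acta1 in 3 (-0.15 and -0.29). Differences between mice in Acta1 and Junb were thus of the order of the agonist differences, and the groups overlapped while the within-mouse ratios had one sign.

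Beyond the members, 4 genes of the wider immediate early list passed with UK14,304. The list has 30 genes, of which 27 were tested. With UK14,304, 3 fell and 1 rose, and 23 did not pass, beside 1.04% lower and 0.177% higher of all tested genes, while 0 of 27 passed with norepinephrine, beside 0.105% of all. The wider lists, too, were drawn up with earlier results of these contrasts known, so that these calls and their p-values are not independent evidence of a direction. Atf3, a stress-induced repressor, fell with UK14,304 from 15 ± 4.11 (SD, n = 4) to 8.96 ± 1.63 CPM (n = 5), a log2 fold change of -0.72 ± 0.0929 with no overlap between groups, as for 1.78% of tested genes that were lower and 1.72% that were higher (edgeR adjusted p = 0.000564). Gadd45b, a stress and growth arrest gene, fell from 15.2 ± 1.6 to 11.4 ± 1.23 CPM (-0.41 ± 0.0667, edgeR adjusted p = 0.00348). Ier3, an early response gene of cell survival, fell from 10.1 ± 2.16 to 7.28 ± 1.3 CPM (-0.52 ± 0.095, edgeR adjusted p = 0.00671). Klf10, a zinc finger factor induced by TGF-β, rose from 64.5 ± 2.06 to 74 ± 5.29 CPM (0.21 ± 0.0453, edgeR adjusted p = 0.0263). Each of the 4 had its direction in 4 of 4 mice.

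With norepinephrine the same genes had log2 fold changes of -0.21 ± 0.0915 (Atf3), -0.17 ± 0.0667 (Gadd45b), -0.29 ± 0.0952 (Ier3) and 0.05 ± 0.0457 (Klf10), and edgeR adjusted p from 0.556 to 0.684. Ier3 passed with norepinephrine without the norepinephrine library of mouse 4 (-0.30, edgeR adjusted p = 0.0425) or without mouse 4 (-0.32, edgeR adjusted p = 0.0363). The median of the 27 was -0.11 with norepinephrine and -0.12 with UK14,304, with 20 of 27 below 0 in each, beside medians of -0.008 and -0.004 over all tested genes. Without the block, 0 of the 4 passed (edgeR adjusted p from 0.119 to 0.368). With the ribosomal RNA term, Atf3 and Gadd45b passed and Ier3 and Klf10 did not (edgeR adjusted p = 0.0547 and 0.14). Leaving out the DMSO library of mouse 2 lost Ier3 and Klf10. Klf10 was also lost without the DMSO library of mouse 3 or 4 and without the UK14,304 library of mouse 1, 2 or 4.

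The other lists gave 0 calls with either agonist in edgeR's blocked fit. Of the 35 other actin and cytoskeletal targets, 28 were tested, and 20 of 28 lay below 0 with each agonist. Their median was -0.05 with norepinephrine and -0.06 with UK14,304, beside -0.008 and -0.004 over all tested genes. The largest values of this list were those of Myl9 and Tagln with UK14,304, -0.77 ± 0.482 and 0.57 ± 0.311, both at under 1 CPM (edgeR adjusted p = 0.451 and 0.399). With the GC trend removed, 2 of the list passed with UK14,304 (1 higher, 1 lower), beside 626 genes in all. Without the UK14,304 library of mouse 4 or without mouse 4, 1 passed, lower, beside 194 and 585 genes in all. Of the 12 ERK feedback genes, which are induced by ERK and dampen it, the medians were -0.03 and -0.03. Dusp4, an ERK phosphatase, stood at 34.1 ± 1.42 CPM in DMSO vehicle and 29.9 ± 2.24 with UK14,304 (-0.19 ± 0.0657, edgeR adjusted p = 0.202), and Spred1 at 63 ± 6.72 and 69.6 ± 8.62 CPM (0.14 ± 0.0848, edgeR adjusted p = 0.449). Without the norepinephrine library of mouse 4, Dusp4 passed with UK14,304 (-0.18, edgeR adjusted p = 0.0418) and Spred1 with norepinephrine (0.24, edgeR adjusted p = 0.0101), and without mouse 4 Dusp4 (-0.22, edgeR adjusted p = 0.012) and Spred1 (0.20, edgeR adjusted p = 0.00405) passed with norepinephrine. The 6 tested of 8 heat shock genes, listed because handling can raise them with immediate early genes, had medians of -0.02 and 0.02 and values within -0.15 to 0.07. Hspa1b had -0.07 ± 0.157 and Hsph1 0.07 ± 0.041 with UK14,304. Without the norepinephrine library of mouse 4, the wider lists together had 19 calls with norepinephrine, 11 of them in the actin list (4 higher, 7 lower), and 12 with UK14,304, in a setting where 16.7% and 8.08% of all 15161 tested genes were called.

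**Figure D4:**
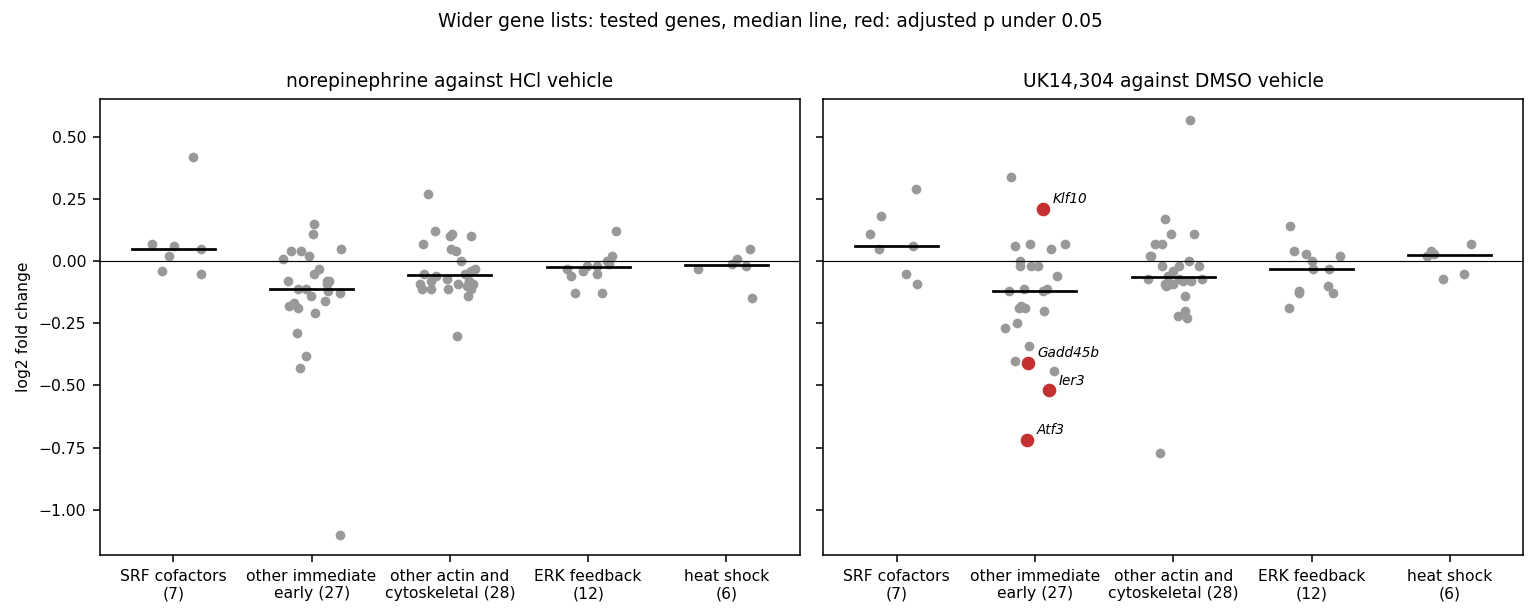
Log2 fold change of every tested gene in 5 wider lists (y axis) for norepinephrine (left) and UK14,304 (right), with the number of tested genes under each list and a line at the median. Red, named points had an adjusted p under 0.05 in the fit with the mouse as a block, namely Atf3, Ier3, Gadd45b and Klf10 with UK14,304 and 0 genes with norepinephrine.

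The members varied together across libraries to different degrees. Over the 45 pairs and 18 libraries, which share mice and groups, Pearson's r of log2 CPM had a median of 0.38 and ran from -0.14 to 0.94, positive in 39 pairs. The closest pairs were Junb and Actb (0.94), Acta1 and Cnn2 (0.88), Egr1 and Fos (0.87), and Srf and Ier2 (0.79). Srf also had 0.77 with Cnn2, 0.74 with Actb and 0.71 with Acta1, but 0.13 with Fos and -0.10 with Egr1. By these values Egr1, Fos and Jun (0.69 to 0.87 among themselves) formed one group and Srf, Junb, Actb, Acta1 and Cnn2 (0.63 to 0.94) another, a grouping made after the values were seen. In the deviations from group and mouse, all 45 pairs were positive (median 0.59, from 0.04 to 0.91), with Srf and Ier2 at 0.91 and Egr1 and Fos at 0.25. No values over pairs of other tested genes are given beside these, so that nothing is read from them as a trait of the set.

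**Figure D5:**
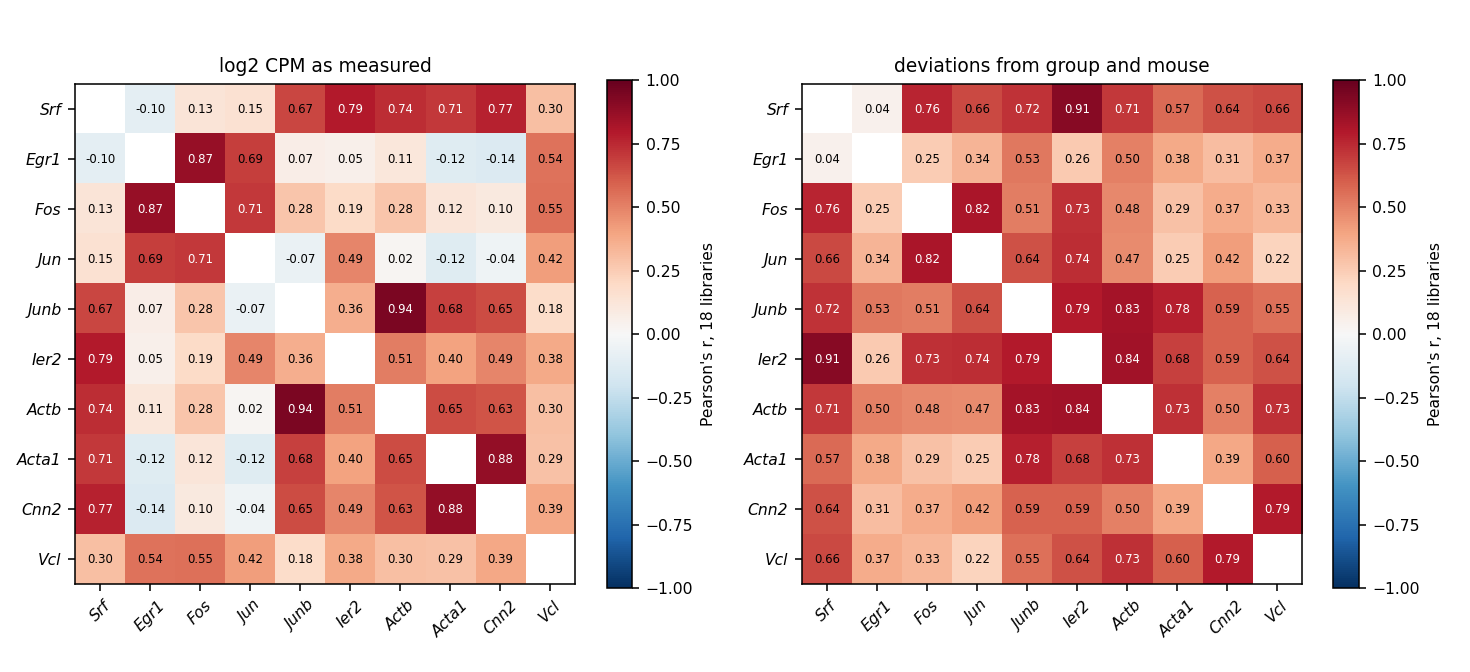
Pearson's r between each pair of the 10 genes over 18 libraries, for log2 CPM as measured (left) and for deviations from the group and mouse fit (right), on a colour scale from -1 to 1. On the left Egr1, Fos and Jun stand apart from Srf, Junb, Actb, Acta1 and Cnn2, and on the right all pairs are above 0.

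Genes outside the set with the most similar pattern over the 18 libraries were looked up for 3 members. For Srf they were Degs2 (r = 0.96), Csnk1g2 (0.95), Ap2s1 (0.95), Emc4 (0.93) and Eif4h (0.93), and 360 genes had an r over 0.8. For Actb they included Ctsd (0.97), Itpk1, Slc25a1 and Ihh (all 0.96), with 663 genes over 0.8. Egr1 had 1 gene over 0.8, Hbegf (0.85), which encodes an EGF receptor ligand, followed by Hist1h1c (0.76), Plxna2 (0.76), Casp4 (0.74) and Hhex (0.74). In the deviations from group and mouse, Hbegf had an r of 0.41 with Egr1.

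How the reads were counted bears on some members. Reads that map to several places or to several genes were not counted, and strand was not used. In 50-base words of the transcripts, 25.1% of Vcl (25.5% of its exon bases overlap Ap3m1), 9.12% of Actb, 5.83% of Jun (overlapped by Junos), 5.76% of Junb and 2.02% of Acta1 also occur in other genes, and none of Srf, Egr1, Fos, Ier2 and Cnn2. Acta1 shares its words with Actb and actin pseudogenes. Actg1, the other cytoplasmic actin, shares 37.4% of its words and had 32 to 64 counts per library, so that its level here is uncertain. In GRCm38, Srf lies on chromosome 17 (46548329 to 46556175), Acta1 on chromosome 8 (123891769 to 123894751), Junb on chromosome 8 (84976910 to 84978718), Cnn2 on chromosome 10 (79988584 to 79996062) and Vcl on chromosome 14 (20929398 to 21033676), and the counts are over their exons, UTRs included.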

How the data were processed

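The authors sequenced single reads, checked them with FastQC 0.11.8 and MultiQC 1.7, mapped them with STAR 2.7.3 to GRCm38 and used SAMtools 1.9. They deposited raw exon read counts per gene, not normalized, with gene lengths. The header names featureCounts 2.0.1 and Ensembl release 102, whereas the labels name Subread 1.6.4. The names of the 18 sample columns gave the sample of each. Of 55487 identifiers, 55141 had a symbol.

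The tests were run with edgeR 4.0.16 in R 4.3.3 (TMM, filterByExpr by group, robust quasi-likelihood fit), with all 18 samples in one model of the 4 groups and the mouse as a block, and Benjamini-Hochberg adjustment over 15247 genes at 0.05. The study names no model formula. The block was used because the numbers in the labels mark the mice. Same-mouse samples deviated together from their group means (correlations of 0.119 to 0.431 over the 4 norepinephrine pairs and 0.155 to 0.52 over the 4 UK14,304 pairs). Log2 CPM used a prior count of 2. Within-mouse ratios come from normalized counts, and those to vehicle leave out mouse 5, which has no vehicle sample. Mouse 5 enters the fit, the group values, the correlations and the ratios of UK14,304 to norepinephrine. The GC slope of a library is the regression of log2 CPM, centred per gene, on GC content from GENCODE M21 transcripts, known for 15229 tested genes. Intervals and standard errors of the blocked fit cover the spread between samples that remains after group and mouse. The script was tested on simulated counts.

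The members, the lists and the rule for named genes were chosen with earlier results of these data known. Named were the members, the SRF cofactors, the genes of each other list that passed (at most 6) or else the 2 largest by absolute log2 fold change with UK14,304, and the 5 genes closest to Srf, Egr1 and Actb, of which 1 is not reported here. Alternatives were no block, DESeq2 1.42.0 or its size factors, no filter or 10 counts in every library, removal of the GC trend (lowess, span 0.3), a term that splits libraries at 1% ribosomal RNA, own vehicle only, without mouse 5, each sample left out, an adjusted p under 0.01 and a log2 fold change of 0.5 or more in size. Leaving out mouse 4 was chosen after seeing the data. Promoters of Egr1, Ier2 and Actb are not shown.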

Additional observations from a re-analysis of the deposited data

Results flagged for a closer look

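In 40 groups of libraries (10 genes in 4 groups), 5 had 1 library apart from the rest by Dixon's test at 95%, where chance flags about 1 in 20. Fos in mouse 2 was 20.8 CPM in HCl vehicle, where the others had 14 to 14.8, and 19.7 CPM in DMSO vehicle, where the others had 13.7 to 14.5. Egr1 in mouse 2 was 23.8 CPM in DMSO vehicle, against 16.7 to 17.6 in the others. Cnn2 in mouse 3 was 19.4 CPM in HCl vehicle, against 16.7 to 16.9. Srf in mouse 4 was 41.9 CPM in HCl vehicle, against 44.6 to 45.1.

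Egr1 was lower with norepinephrine and higher with UK14,304 in each of mice 1 to 4, with a difference between the effects of 0.42 on the log2 scale. Because the gene was chosen from these contrasts, this difference is a description and was not tested as a result. The norepinephrine part of it was small, from -0.09 to 0.01 over the alternatives, and its sign depends on the processing. Over all genes, 0 passed the test of the difference in edgeR.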

How the results depend on the processing

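Counts below are of genes with an adjusted p under 0.05, in the order norepinephrine then UK14,304, beside 16 and 186 genes in all, 1 and 3 of the 10 members, and 0 and 4 genes of the wider lists. Without the replicate block they were 0 and 6 genes, 0 and 0 members, and 0 and 0 wider genes. DESeq2 with the block gave 34 and 272 genes, and 2 and 4 members. With no filter on low counts they were 153 and 627 genes, 3 and 5 members, and 1 and 5 wider genes. With the GC trend removed (with the replicate block) they were 31 and 626 genes, 2 and 7 members, and 0 and 8 wider genes. With the ribosomal RNA term added to the replicate block, UK14,304 had 78 genes, 2 members and 2 wider genes. With its own vehicle only, it had 525 genes and 5 members. An adjusted p under 0.01 left 91 genes with UK14,304, and a log2 fold change of at least 0.5 in size left 9 and 53 genes, 1 member with UK14,304 and 2 of its wider genes. Without mouse 4, chosen after seeing the data, they were 2300 and 585 genes, 6 and 4 members, and 18 and 9 wider genes. The causes were not tested.

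The difference between the agonist effects, with 0 genes, had 1 with DESeq2, 1 with at least 10 counts in every library, 24 with no filter and 12 without mouse 4. HCl against DMSO vehicle, with 0, had 17 with no filter. The test between mice, with 2110 genes and 5 members, had 3701 genes with the GC trend removed, 4459 without mouse 4 and 1335 at an adjusted p under 0.01.

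Leaving out each library in turn gave 10 to 2529 genes with norepinephrine, 68 to 1225 with UK14,304, 0 to 1 for the difference and 1503 to 3581 between mice. The members called ranged from 1 to 6, 2 to 7 and 4 to 5 (between mice), and the wider genes from 0 to 19 and 2 to 12. With either agonist, the highest counts were those without the norepinephrine library of mouse 4. Calls with norepinephrine were also 10 without the HCl library of mouse 1 and 27 without the UK14,304 library of mouse 4. Calls with UK14,304 were 68 and 95 without the DMSO library of mouse 2 or 3, and 119 and 91 without the UK14,304 library of mouse 2 or 3. Between mice 3189 genes passed without the UK14,304 library of mouse 4.

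The median correlation among the members, 0.38, was 0.59 in deviations from group and mouse and 0.33 with DESeq2 size factors. Srf, Fos, Junb, Actb, Acta1 and Cnn2 with either agonist, and Egr1, Jun and Vcl with UK14,304, kept their sign under all alternatives run. Ier2 with either agonist, and Egr1 and Jun with norepinephrine, did not. Atf3 with UK14,304 lay between -0.78 and -0.64 (adjusted p from 2.78e-13 to 0.208) and Klf10 between 0.17 and 0.24 (0.000955 to 0.177). The counts behind Cnn2 and Fos are low beside those of Actb or Vcl, and their standard errors are larger. Standard errors did not follow counts throughout, since Junb had more counts than Egr1 in every library and a larger standard error with each agonist.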
